A study of Homo sapiens with 24 samples.

Results

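The collapsin response mediator proteins (CRMPs) are encoded by CRMP1, DPYSL2, DPYSL3, DPYSL4 and DPYSL5. The 5 genes were taken by name as a family and matched by Ensembl identifier in each count table; the rule uses no measured value, but the family was picked with earlier results of these data known. They are 5 of the 57356 genes listed in all 3 tables of the series, and all 5 passed the filter on low counts in every experiment. In the GRCh38 coordinates of the CRISPRi tables, CRMP1 (ENSG00000072832) lies at chr4:5748084-5893086 on the minus strand and DPYSL3 (ENSG00000113657) at chr5:147390808-147510068 on the minus strand. DPYSL2 (ENSG00000092964) at chr8:26514031-26658178, DPYSL4 (ENSG00000151640) at chr10:132186948-132205759 and DPYSL5 (ENSG00000157851) at chr2:26847747-26950351 are on the plus strand. The tables give 1 count per gene, so isoforms are not separated.

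The series used RNA sequencing on SK-N-SH cells and on SK-N-AS cells, both established human neuroblastoma lines, after knockdown of FAM167A, also called DIORA1. In the first experiment SK-N-SH cells received a pool of siRNAs against DIORA1 (5 libraries) or a non-targeting siRNA control (5 libraries). In the other two experiments, SK-N-SH (3 against 3 libraries) and SK-N-AS (4 against 4 libraries) carried SpCas9-KRAB, a Cas9 fused to a KRAB repressor domain (CRISPR interference, CRISPRi). The CRISPRi cells had guide RNA targeting DIORA1 or the sgGal4 guide as non-targeting control, so the CRISPRi controls carry the repressor too. The labels leave out the guide sequences, the number of guides, whether the CRISPRi cells were 1 clone, and the time after siRNA delivery. They also do not say whether replicates were separate cultures, so p-values measure only the spread between these libraries, which may be technical.

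CRMPs are cytosolic phosphoproteins of developing neurons, related in sequence to dihydropyrimidinase, that associate with one another in mixed complexes. They bind tubulin and other cytoskeletal proteins and act in the growth cone downstream of class 3 semaphorins, whose receptors are neuropilins and plexins. Kinases such as CDK5 and the GSK3 kinases phosphorylate them and thereby loosen their hold on tubulin. Neuroblastoma arises from the sympathoadrenal lineage of the neural crest, and its cells keep part of a neuronal programme.

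Of the 5 CRMP genes 4 fell and DPYSL3 rose when FAM167A was repressed by CRISPRi in SK-N-SH, while no family member changed after siRNA in the same line. In SK-N-AS, DPYSL5 fell as it did in SK-N-SH, but DPYSL3 went the other way and fell. Of all genes tested, 55.8% changed in SK-N-SH CRISPRi, 9.53% with siRNA and 30.6% in SK-N-AS CRISPRi. Among the 15 member comparisons the largest changes were those of DPYSL5 and CRMP1 in SK-N-SH CRISPRi, at 4.78-fold and 3.8-fold lower than control.

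The siRNA libraries held between 71464698 and 90255175 reads each. SK-N-SH CRISPRi libraries were the shallowest, between 11690515 and 21628076 reads, and SK-N-AS CRISPRi libraries held between 29985858 and 104455853. Knockdown libraries 3 and 4 of the siRNA experiment stood apart from the other knockdown libraries, with 6.45% and 6.41% of reads from mitochondrial genes against 8.45% to 8.67%. FAM167A itself stood at 34.7% of control after siRNA, at 1.33% in SK-N-SH CRISPRi and at 10.7% in SK-N-AS CRISPRi, and every knockdown library was below every control library in each. Of the adrenergic markers that define the sympathetic neuroblast state, HAND2 and GATA2 were present in both lines, but TH, the first enzyme of catecholamine synthesis, had a mean of at most 0.718 CPM in any group. Levels are given as CPM, read counts relative to the library total, scaled by TMM factors within each experiment.

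After siRNA against FAM167A the CRMP genes stayed where the controls were. CRMP1, which transmits semaphorin 3A signals in the growth cone, was at 406, 407, 410.1, 369.9 and 396 CPM in the 5 knockdown libraries and at 394, 412, 394, 396 and 408 CPM in the 5 controls. DPYSL2 encodes CRMP2, which binds tubulin dimers and promotes axon growth, and it was at 264, 264, 265, 244 and 258 CPM against 257, 265, 254, 255 and 257 CPM. The libraries of the groups were intermixed for both genes.

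DPYSL3, whose product CRMP4 binds bundled actin, was at 178, 197, 191, 184 and 182 CPM after siRNA and at 187, 195, 195, 191 and 189 CPM in the controls. DPYSL4 (CRMP3) was at 167, 179.8, 177, 171 and 175 CPM against 170.01, 183, 164, 178 and 183 CPM. DPYSL5 encodes CRMP5, which counters the neurite growth that CRMP2 promotes, and it was at 353, 382.5, 359, 327 and 337 CPM against 338, 364, 340.4, 342 and 367 CPM. Groups overlapped for all 5 genes.

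By edgeR's quasi-likelihood test, 0 of the 5 members changed at an adjusted p under 0.05 with siRNA, where 9.53% of all genes tested did, 2.55% up and 6.98% down. Groups failed to overlap for 0 members and for 8.74% of all genes, and 0 members and 0.699% of all genes changed at least 2-fold. The fold changes lay between -0.04 ± 0.04 (SE) for DPYSL3 and 0.01 ± 0.04 for DPYSL2 on the log2 scale. Adjusted p ran from 0.616 to 0.968, and 0 members had an unadjusted p under 0.05. Without knockdown libraries 3 and 4, which stood apart, 0 of 5 members changed as well. The 95% confidence intervals of the 5 genes together spanned -0.12 to 0.10, so this experiment bounds a change at 0.922-fold to 1.07-fold of control.

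CRISPRi of FAM167A in the same line gave a different picture, with CRMP1 and DPYSL5 falling most. CRMP1 was at 39.5, 44.6 and 42.8 CPM in the 3 knockdown libraries against 159, 164 and 159 CPM in the 3 controls. DPYSL5 was at 24.4, 27.7 and 26.0 CPM against 115, 132 and 125 CPM. Every knockdown library lay below every control for both genes, and the replicate spread was small beside the difference: for CRMP1, 42.3 ± 2.59 against 161 ± 2.84 CPM (SD, n = 3 each).

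DPYSL2 and DPYSL4 fell by smaller amounts. DPYSL2 was at 76.8, 81.8 and 79.2 CPM after knockdown against 145, 143 and 145 CPM in controls. DPYSL4 was at 46.6, 44.7 and 49.7 CPM against 83.2, 93.1 and 91.3 CPM. DPYSL3 moved in the opposite direction, at 565, 577 and 569 CPM after knockdown against 288, 264 and 291 CPM in controls. No group overlapped its control for any of the 5 genes, and 60.7% of all genes tested likewise did not overlap.

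In edgeR's quasi-likelihood test all 5 members changed in SK-N-SH CRISPRi, 1 up and 4 down. The background here is high: 55.8% of all genes tested changed, 27.7% up and 28.0% down, so a call alone says little about a gene in this experiment and the size says more. DPYSL5 fell by 2.26 ± 0.06 on the log2 scale (SE, adjusted p = 1.14e-27), to 20.9% of control. CRMP1 fell by 1.93 ± 0.05 (adjusted p = 1.68e-28), to 26.3% of control. Both passed a 2-fold change. DPYSL3 rose by 1.02 ± 0.04 (adjusted p = 9.69e-23), and its 95% interval of 0.94 to 1.10 includes a 2-fold change. Its rise was 0.98 without control library 2 and 0.89 with total-count scaling, under which DPYSL4 reached -1.06, so which of these genes pass 2-fold depends on the setting. Only 10.8% of tested genes changed at least 2-fold.

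DPYSL2 fell by 0.87 ± 0.04 (edgeR adjusted p = 2.47e-19), to 54.9% of control, and DPYSL4 fell by 0.93 ± 0.05 (edgeR adjusted p = 1.47e-17), to 52.6% of control. The median log2 fold change of the 5 members was -0.93, against -0.0068 over all genes tested. These are whole-culture libraries, in which fewer cells of a type and less RNA per cell cannot be told apart.

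**Figure D1:**
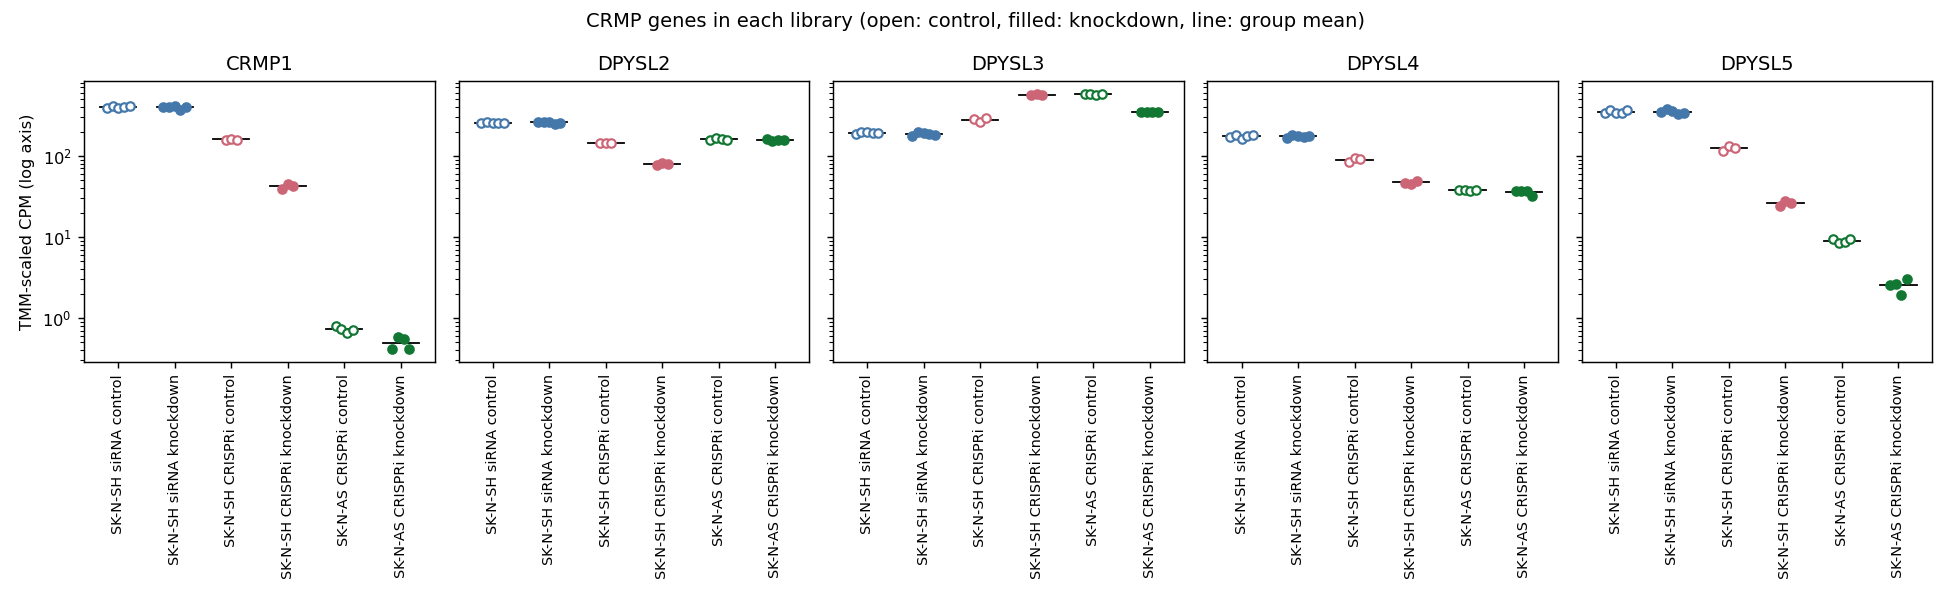
CPM of CRMP1, DPYSL2, DPYSL3, DPYSL4 and DPYSL5 (vertical log axis) in each of the 24 libraries, open points for control, filled for knockdown, with lines at group means. In SK-N-SH CRISPRi the knockdown points lie apart from the controls for all 5 genes, below them for 4 and above them for DPYSL3, whereas the siRNA points are intermixed.

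The sequence upstream of RefSeq starts is shown because 4 members fell and DPYSL3 rose in the SK-N-SH CRISPRi comparison. From RefSeq (GRCh38.p14), the 250 bases before the most upstream listed start are given for CRMP1 (chr4:5893087-5893336, minus strand), DPYSL5 (chr2:26847745-26847994, plus strand), DPYSL4 (chr10:132186698-132186947, plus strand) and DPYSL3 (chr5:147510069-147510318, minus strand). Capitals mark GC boxes, the motif GGGCGG or its reverse complement CCGCCC, on both strands. DPYSL2 is named only. The CRMP1, DPYSL4 and DPYSL3 windows end where the counted gene begins. The DPYSL5 window belongs to a RefSeq start that lies inside the gene as counted (from 26847747), so nearly all of it is within the counted gene.
CRMP1: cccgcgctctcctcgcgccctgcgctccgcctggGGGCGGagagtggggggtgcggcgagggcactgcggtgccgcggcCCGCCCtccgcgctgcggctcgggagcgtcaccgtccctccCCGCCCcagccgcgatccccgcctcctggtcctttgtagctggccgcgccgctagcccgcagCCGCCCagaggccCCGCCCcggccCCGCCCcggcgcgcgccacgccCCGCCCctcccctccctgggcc
DPYSL5: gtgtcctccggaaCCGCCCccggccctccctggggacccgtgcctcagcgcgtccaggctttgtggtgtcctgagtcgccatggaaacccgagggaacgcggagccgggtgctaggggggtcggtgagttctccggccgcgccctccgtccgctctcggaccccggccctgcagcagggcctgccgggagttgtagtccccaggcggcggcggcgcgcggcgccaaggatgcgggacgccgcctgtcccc
DPYSL4: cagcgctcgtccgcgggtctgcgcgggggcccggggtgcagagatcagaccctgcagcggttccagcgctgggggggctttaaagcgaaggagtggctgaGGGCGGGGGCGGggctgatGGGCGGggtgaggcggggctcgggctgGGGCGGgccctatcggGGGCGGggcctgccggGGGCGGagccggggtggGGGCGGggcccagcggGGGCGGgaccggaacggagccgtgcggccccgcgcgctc
DPYSL3: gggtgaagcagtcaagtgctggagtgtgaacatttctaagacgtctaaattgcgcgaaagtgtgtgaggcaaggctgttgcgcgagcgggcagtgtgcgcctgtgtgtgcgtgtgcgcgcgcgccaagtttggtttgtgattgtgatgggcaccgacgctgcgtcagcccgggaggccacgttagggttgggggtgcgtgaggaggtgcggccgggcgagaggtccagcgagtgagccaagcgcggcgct
These windows held 7 GC boxes for CRMP1, 8 for DPYSL4 and 1 for DPYSL5, and 0 for DPYSL3. The other listed starts differ from these: the second DPYSL3 start held 3, the second DPYSL5 start 0, and the other CRMP1 starts 1, 5 and 2. Among these 4 genes the count therefore does not separate the rising gene from the falling ones. DPYSL2, which also fell, was not searched. A GC box occurs in 42.6% of the 35114 promoters in the table. The CRMP1 window was 82.8% GC with 37 CpG dinucleotides, and the DPYSL3 window 62.8% GC with 25, where the median promoter has 11. None of the 4 windows held TATAAA, which 10.7% of promoters carry. CRMP1, DPYSL3 and DPYSL5 have further listed starts, and which start these cells use was not measured. A match of letters is a description of the window and not a measured binding site.

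In SK-N-AS, which has little CRMP1, the family responded to CRISPRi of FAM167A in a narrower way. DPYSL5 was at 2.56, 2.65, 1.93 and 3.05 CPM in the 4 knockdown libraries against 9.35, 8.53, 8.76 and 9.49 CPM in the 4 controls. DPYSL3 was at 352, 348, 350.3 and 349 CPM against 584, 573, 572 and 574 CPM. Both genes fell, with no overlap between groups.

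DPYSL2 did not separate, at 162, 153, 157 and 156 CPM after knockdown against 156, 164, 159.7 and 159 CPM in controls. DPYSL4 was at 36.5, 37.2, 37.4 and 32.3 CPM against 37.4, 38.4, 37.1 and 38.4 CPM, with overlapping groups. CRMP1 was nearly absent in this line, at 0.419, 0.576, 0.547 and 0.416 CPM (34, 60, 30 and 24 reads) against 0.786, 0.733, 0.657 and 0.715 CPM (58, 22, 54 and 44 reads). All 4 of its knockdown libraries lay below all 4 controls, but on few reads.

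In SK-N-AS, 2 of 5 members changed, both down, where 30.6% of all genes tested changed, 15.2% up and 15.5% down. DPYSL5 changed at least 2-fold, as did 2.99% of all genes. DPYSL5 fell by 1.82 ± 0.10 on the log2 scale (SE, edgeR adjusted p = 1.09e-16), to 28.3% of control. DPYSL3 fell by 0.72 ± 0.02 (edgeR adjusted p = 3.14e-23), to 60.8% of control. For CRMP1 the estimate was -0.55 ± 0.26 with an edgeR adjusted p of 0.11 (unadjusted 0.0412), and its 95% interval ran from -1.08 to -0.02. The intervals of DPYSL2 (-0.08 to 0.03) and DPYSL4 (-0.17 to 0.02) bound any change of theirs to a small one. In CPM, 3 members did not overlap between groups, counting CRMP1, against 29.1% of all genes tested.

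**Figure D2:**
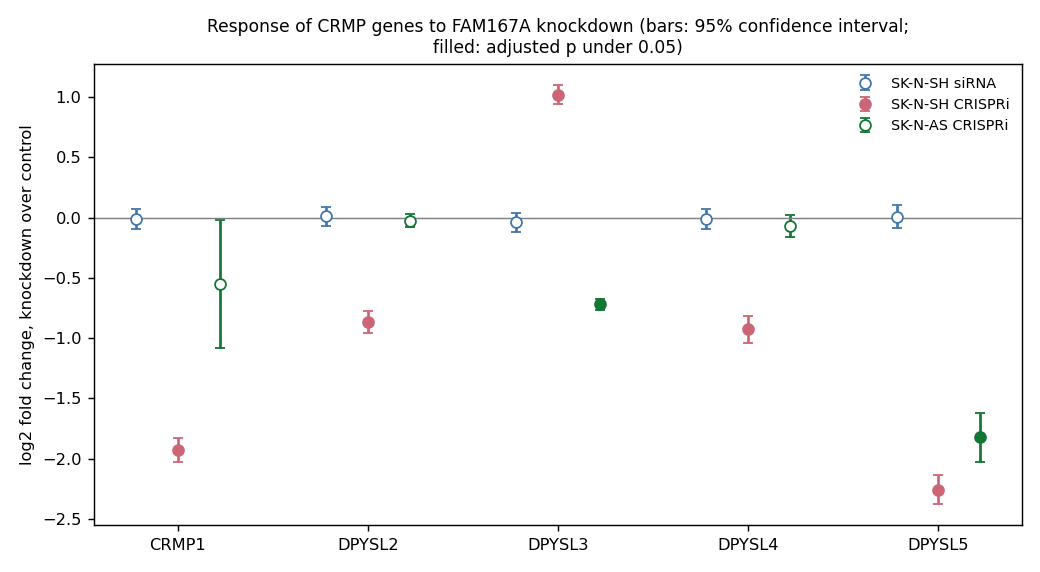
Log2 fold change of knockdown against control (vertical axis) for each CRMP gene in the 3 experiments, with 95% confidence intervals as bars. All 5 siRNA intervals include 0, and DPYSL3 lies above 0 in SK-N-SH CRISPRi and below 0 in SK-N-AS CRISPRi.

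Whether the response differed between experiments was tested directly, as the knockdown effect in one minus the knockdown effect in the other, each against its own controls. Between CRISPRi and siRNA in SK-N-SH all 5 members differed, as did 31.4% of all genes tested. The difference was -2.27 ± 0.08 for DPYSL5 (edgeR adjusted p = 7.95e-21) and -1.93 ± 0.07 for CRMP1 (edgeR adjusted p = 6.04e-21). It was -0.92 ± 0.07 for DPYSL4, -0.88 ± 0.06 for DPYSL2 and 1.05 ± 0.06 for DPYSL3, with the largest edgeR adjusted p of the 5 at 1.71e-12. Without siRNA knockdown libraries 3 and 4 the differences lay between -2.28 for DPYSL5 and 1.07 for DPYSL3, and all 5 passed. The experiments differ at once in the means of knockdown, in how much FAM167A remained (1.33% against 34.7%) and in library preparation and run, and these cannot be told apart.

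Between the lines under CRISPRi all 5 members differed as well, against 30.7% of all genes tested. DPYSL3 differed in direction, with a difference of SK-N-AS minus SK-N-SH of -1.75 ± 0.04 (edgeR adjusted p = 1.07e-32). Of 14236 genes tested in both lines, 3.09% rose in SK-N-SH and fell in SK-N-AS as it did. The other 4 responded less in SK-N-AS: the difference was 1.38 ± 0.17 for CRMP1, 0.83 ± 0.05 for DPYSL2 and 0.84 ± 0.07 for DPYSL4, with edgeR adjusted p up to 7.30e-09. For CRMP1 the SK-N-AS libraries held 22 to 60 reads each, and its change there alone was -0.55 ± 0.26. The joint fit shares its variance estimate over both lines, so the ± and adjusted p of the CRMP1 difference may overstate its certainty. The difference was smallest for DPYSL5, at 0.42 ± 0.11 (edgeR adjusted p = 0.00312). DPYSL5 alone of the members was called down in both lines, as 10.3% of those genes were. It fell at least 2-fold in both, as 0.436% did. The CRMP1 estimate was also below 0 in both lines, but it did not pass in SK-N-AS. The SK-N-SH and SK-N-AS experiments differ at once in line, in how much FAM167A remained (1.33% against 10.7%) and in sequencing depth. These cannot be told apart. Both sets of differences use the SK-N-SH CRISPRi libraries.

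The control libraries give the levels of the family without knockdown of FAM167A. The SK-N-SH controls of the siRNA and CRISPRi experiments differ in treatment, repressor, library preparation and run, which cannot be told apart. Against the siRNA controls of the same line, the SK-N-SH CRISPRi controls differed by -1.21 ± 0.05 on the log2 scale in CRMP1, -1.39 ± 0.06 in DPYSL5, -0.87 ± 0.05 in DPYSL4 and -0.73 ± 0.04 in DPYSL2, all lower, and by 0.66 ± 0.04 in DPYSL3, which was higher. All 5 differences passed the edgeR test, with adjusted p up to 5.05e-15, as did those of 65.8% of all genes. These values and the CRISPRi knockdown effects share the SK-N-SH CRISPRi controls, so their directions are not set against each other here.

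SK-N-AS controls had 223-fold less CRMP1 than SK-N-SH CRISPRi controls, a log2 difference of -7.80 ± 0.08 (edgeR adjusted p = 4.36e-52). The SK-N-AS level of CRMP1 rests on 178 reads over 4 control libraries, so this ± may be too small. DPYSL5 was 13.8-fold lower, at -3.78 ± 0.07, and DPYSL4 was 2.38-fold lower, at -1.25 ± 0.05. DPYSL3 was 2.04-fold higher, at 1.03 ± 0.03, and DPYSL2 was 1.1-fold higher, at 0.14 ± 0.04 (edgeR adjusted p = 0.000489). All 5 passed, where 77.4% of genes did. The lines were in separate experiments and tables, so line and experiment cannot be told apart.

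To compare genes with one another, CPM was divided by the gene length in kilobases that the siRNA table gives and each gene given as a share of the 5-gene sum. In siRNA controls CRMP1 was highest at 29.2% ± 0.213 (SD, n = 5), followed by DPYSL4 at 23.5% ± 0.596 and DPYSL5 at 21.0% ± 0.341. DPYSL2 had 14.96% ± 0.262 and DPYSL3 was lowest at 11.3% ± 0.334. The order in siRNA knockdown was the same.

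In SK-N-SH CRISPRi controls the order was DPYSL3 29.7% ± 1.66, DPYSL4 21.2% ± 0.977, CRMP1 20.9% ± 0.465, DPYSL2 14.9% ± 0.273 and DPYSL5 13.3% ± 0.773 (SD, n = 3). The shares of DPYSL4 and CRMP1 did not differ beyond their spread. After knockdown DPYSL3 made up 68.5% ± 0.553 of the family, CRMP1 6.25% ± 0.298 and DPYSL5 3.16% ± 0.163. In SK-N-AS controls DPYSL3 already held 69.6% ± 0.485 (n = 4), and 59.5% ± 0.544 after knockdown, while DPYSL2 went from 18.9% ± 0.419 to 26.2% ± 0.444. CRMP1 held 0.107% ± 0.00732 there.

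The 5-gene sum was 236 ± 6.41 CPM per kilobase in siRNA controls and 234 ± 8.27 after siRNA knockdown, within the replicate spread. In SK-N-SH CRISPRi it went from 132 ± 2.27 to 116 ± 1.65, with DPYSL3 gaining and the other 4 losing. In SK-N-AS it went from 116 ± 0.662 to 82.1 ± 1.08.

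**Figure D3:**
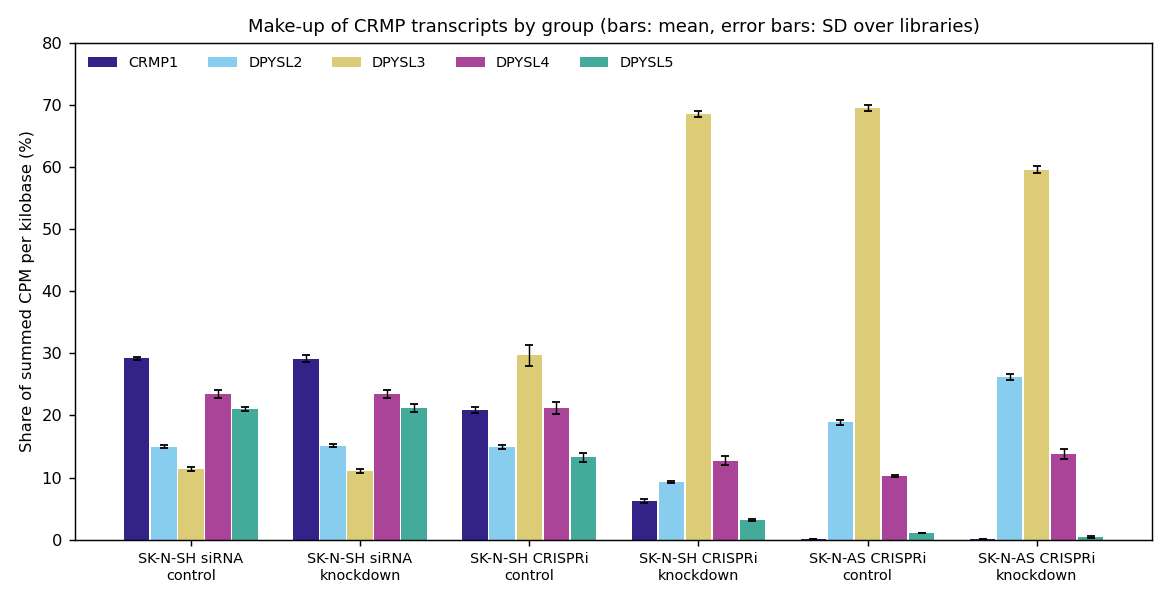
Mean share of each CRMP gene in the summed CPM per kilobase of the family (vertical axis, percent) in the 6 groups of libraries, with SD as error bars. DPYSL3 takes 68.5% in the SK-N-SH CRISPRi knockdown group, against 29.7% in its own controls.

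Genes that act with CRMPs were counted from lists of semaphorin 3 ligands and receptors, of kinases and phosphatases, of binding partners and of neurite growth genes. Among the semaphorin 3 genes 0 rose and 8 fell of 20 tested with siRNA. In SK-N-SH CRISPRi 12 rose and 3 fell of 18, and in SK-N-AS 6 rose and 7 fell of 19. The shares called were 40% with siRNA, 83.3% in SK-N-SH CRISPRi and 68.4% in SK-N-AS. Over all genes tested they were 9.53%, 55.8% and 30.6%. The receptor NRP1 fell with siRNA by 0.94 ± 0.05 (SE) on the log2 scale but rose by 0.66 ± 0.05 in SK-N-SH CRISPRi and by 0.79 ± 0.03 in SK-N-AS CRISPRi. With siRNA the ligand SEMA3D fell by 0.84 ± 0.05 and the plexin PLXNA2 fell by 0.50 ± 0.06. L1CAM, an adhesion molecule in the same receptor complex, fell by 1.86 ± 0.05 in SK-N-SH CRISPRi, and PLXNA4 fell by 1.55 ± 0.07. NRP2, the other neuropilin, rose there by 0.89 ± 0.05 and fell with siRNA by 0.45 ± 0.05. In SK-N-AS the ligands SEMA3F and SEMA3A fell by 1.66 ± 0.09 and by 0.54 ± 0.04. These ligands rose in SK-N-SH CRISPRi, by 0.66 ± 0.07 and by 0.62 ± 0.06. L1CAM and PLXNA4 rose in SK-N-AS, by 0.13 ± 0.03 and by 0.40 ± 0.09, with overlapping libraries for PLXNA4.

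Among the kinases and phosphatases 1 rose and 1 fell of 18 with siRNA. SK-N-SH CRISPRi had 4 up and 6 down of 16, and SK-N-AS 2 up and 5 down of 18. The shares called were 11.1%, 62.5% and 38.9%, close to the 9.53%, 55.8% and 30.6% of all genes tested. The activators of CDK5 fell in both CRISPRi experiments. CDK5R2 fell by 2.19 ± 0.12 in SK-N-SH and by 0.90 ± 0.11 in SK-N-AS, and CDK5R1 fell by 1.28 ± 0.07 and by 0.37 ± 0.07. CAMK2B, a calcium-dependent kinase, fell by 1.33 ± 0.13 in SK-N-SH CRISPRi. With siRNA the kinase ROCK2 rose by 0.18 ± 0.04 and DYRK2, a kinase that primes CRMPs for GSK3, fell by 0.15 ± 0.04. DYRK2 fell by 0.40 ± 0.06 in SK-N-SH CRISPRi and by 0.19 ± 0.03 in SK-N-AS.

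Of the binding partners, 2 of 20 fell with siRNA and 0 rose. The kinesin KIF5A fell by 0.34 ± 0.04. In SK-N-SH CRISPRi 5 rose and 7 fell of 20, and in SK-N-AS 3 rose and 8 fell of 19. The shares called were 10% with siRNA, 60% in SK-N-SH CRISPRi and 57.9% in SK-N-AS. Over all genes tested they were 9.53%, 55.8% and 30.6%. TUBB2B, a neuronal beta tubulin, fell by 1.73 ± 0.06 in SK-N-SH CRISPRi and by 0.72 ± 0.08 in SK-N-AS. KIF5C, a kinesin motor, fell by 1.62 ± 0.05 and by 0.22 ± 0.04, and CACNA1B, the N-type calcium channel, fell by 1.65 ± 0.12 in SK-N-SH. TUBB2A, another beta tubulin, rose by 0.38 ± 0.06 in SK-N-AS.

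Of the neurite growth and immature neuron genes, 4 rose and 18 fell of 22 in SK-N-SH CRISPRi, with a median log2 fold change of -1.20 against -0.0068 over all genes. The microtubule-binding DCX fell by 3.18 ± 0.11, the intermediate filament gene PRPH fell by 3.13 ± 0.49, and the RNA-binding ELAVL4 fell by 2.11 ± 0.06. PRPH was near the floor there, at 1.26 CPM in controls and 0.13 CPM after knockdown. In SK-N-AS 8 rose and 7 fell of 20, with the neurofilaments NEFL up by 1.33 ± 0.04 and NEFM up by 1.09 ± 0.04, and NCAM1 up by 0.64 ± 0.04. In SK-N-SH CRISPRi, by contrast, NEFL fell by 1.85 ± 0.08, NEFM by 2.01 ± 0.08 and NCAM1 by 0.14 ± 0.04. With siRNA 1 fell of 22, UCHL1, by 0.19 ± 0.05, which was named after its value was seen. Without siRNA knockdown libraries 3 and 4, an alternative chosen after seeing the data, the siRNA counts were 7 down for the semaphorin genes, 0 up and 1 down for the kinases and phosphatases, 1 down for the binding partners, and 1 up and 0 down for the neurite growth genes. The call of ROCK2 and that of UCHL1 therefore rest on those libraries. These counts read against 9.53%, 55.8% and 30.6% of all genes called in the 3 experiments.

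Cell state markers moved in the same libraries. Of the adrenergic markers 12 fell and 1 rose of 13 in SK-N-SH CRISPRi, and their summed level was between 3249 and 3451 CPM in the controls and between 1243 and 1319 CPM after knockdown. Mesenchymal markers, 11 up and 2 down of 14 there, summed to between 12412 and 14108 CPM in the controls and between 26653 and 27825 CPM after knockdown. In SK-N-AS 9 adrenergic markers fell and 1 rose of 14, with sums of 3616 to 3755 CPM in the controls and 2788 to 2914 CPM after knockdown, and 10 mesenchymal markers rose and 3 fell of 14. In the siRNA experiment 3 adrenergic markers rose and 0 fell of 13, while 0 mesenchymal markers rose and 8 fell of 14. Over all genes tested, 28.0% fell and 27.7% rose in SK-N-SH CRISPRi, 15.5% and 15.2% in SK-N-AS, and 6.98% and 2.55% with siRNA. Epithelial markers, 2 up and 1 down of 4 tested, summed to 82.2 to 89.2 CPM in SK-N-SH CRISPRi controls and 159.7 to 168 CPM after knockdown, mostly KRT18, with ESRP1 at 0. The part of these marker changes in the CRMP values was not tested. Summed Schwann cell precursor markers were at most 4.8 CPM in any library, with FOXD3 at 0 in all 3 tables.

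**Figure D4:**
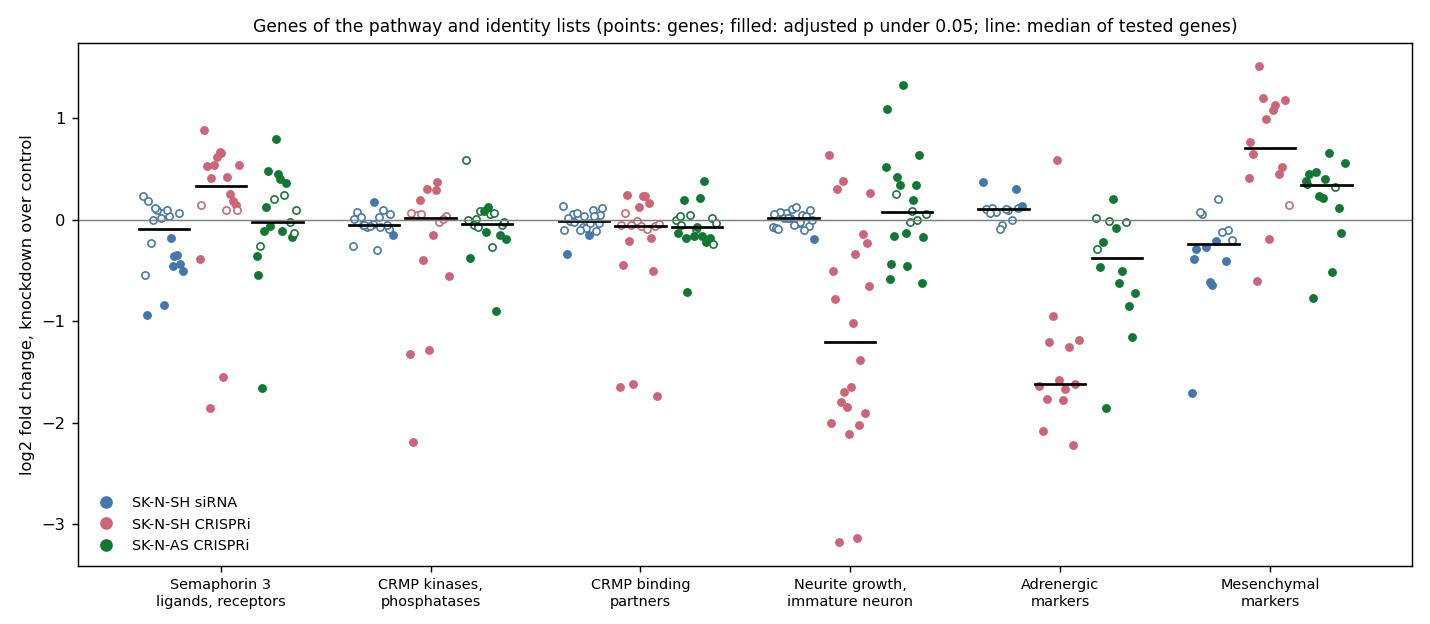
Log2 fold change (vertical axis) of the tested genes in each list of CRMP-related and cell state genes, by experiment, filled where the edgeR adjusted p was under 0.05, with a line at the median of the list. The neurite growth and adrenergic lists lie mostly below 0 in SK-N-SH CRISPRi, where their counts of falling genes are 18 of 22 and 12 of 13.

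Across the 6 group means on the log2 CPM scale, centred per gene, the genes with the pattern most like each member's were found by the root mean square difference over 13943 genes. For this, TMM factors were computed over all 24 libraries together. For CRMP1, whose means span 9.56, the nearest were SIX3 (0.290), CPLX2 (0.30) and APC2 (0.564). The low end of that span is near the floor, at -0.37 in SK-N-AS controls and -0.91 in SK-N-AS knockdown. The nearest genes of CRMP1 and its distance from other members depend on those values. For DPYSL5, which spans 7.08, they were XKR7 (0.444), ZNF229 (0.464) and WNK2 (0.492). For DPYSL3 they were TWIST2 (0.203), VASP (0.223) and ELF4 (0.224). For DPYSL2 they were ADGRL1 (0.0575), ANO7 (0.0677) and HAND2-AS1 (0.0771), and for DPYSL4 LPAR2 (0.0644), GPC2 (0.0705) and INSR (0.0866). Between members the closest pair was DPYSL2 and DPYSL4 at 0.69, and the farthest CRMP1 and DPYSL3 at 4.49. The 6 points share tables and libraries, so these are descriptions with no test.

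Neighbouring genes bear on how reads are assigned, since the strand setting of the counting is not given. PNMA2 lies head to head with DPYSL2 on the opposite strand and overlaps its start, from 26514031 to 26514092 on chromosome 8. The length given for DPYSL2 is 7305 bases, so the shared stretch is a small part of it. In SK-N-SH CRISPRi PNMA2 fell by 1.82 ± 0.07 on the log2 scale (edgeR adjusted p = 2.74e-16). In SK-N-AS, where DPYSL2 did not pass, PNMA2 fell by 0.46 ± 0.03 (edgeR adjusted p = 1.03e-14). EVC overlaps CRMP1 on the other strand and rose by 0.31 ± 0.07 in SK-N-SH CRISPRi (edgeR adjusted p = 0.000224). Reads from overlapping parts cannot be told apart without strand.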

How the data were processed

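The authors deposited counts: whole numbers of raw reads for every gene in 24 libraries, in 3 separate tables. Per the submitters' processing notes the authors used bcl2fastq 2.20.0.422 and 2.20, CASAVA, FastQC 0.11.8, STAR 2.6.1d, featureCounts 1.5.1 and the build GRCh38, with no roles given. Per the labels' protocols the CRISPRi libraries came from a stranded mRNA kit, and the siRNA protocol covers stranded and non-stranded libraries. Annotation release and strand setting: not given in the sources used here.

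Each experiment was tested alone with edgeR 4.0.16 in R 4.3.3: filterByExpr (minimum count 10, minimum total 15), TMM scaling, glmQLFit with robust estimation, glmQLFTest, two-sided, and Benjamini-Hochberg adjustment over the 21018, 15391 and 19277 genes kept. Genes were called at an adjusted p under 0.05. Differences in response and in control level were tested in joint models over 2 experiments, on 23287 and 19862 genes. Gene lengths from the siRNA table gave CPM per kilobase in all 3 experiments, and levels across tables carry their separate counting. The procedure was tested on simulated data in which few genes changed, evenly up and down. That test does not cover a share of changed genes as large as the 55.8% called in SK-N-SH CRISPRi.

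The members and lists were chosen with earlier results of these data known. The genes named are FAM167A, the 5 members, up to 3 called members of each of 4 pathway lists per experiment with the largest non-overlapping change, and the 3 genes most like each member by root mean square difference. Markers, overlapping genes and any others said to be so were named after their values were seen. Some genes that the lists hold are not reported here. Alternatives covered scaling, filters, DESeq2 1.42.0, a replicate block and each library left out. Replicate numbers do not pair the libraries: the correlation of same-numbered deviations was between -0.136 and 0.0477 with siRNA, between -0.0205 and 0.0248 for SK-N-SH CRISPRi and between -0.0329 and 0.00473 for SK-N-AS.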

Additional observations from a re-analysis of the deposited data

Results flagged for a closer look

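Each of the 5 CRMP genes responded differently to FAM167A knockdown by CRISPRi and by siRNA in SK-N-SH, by an edgeR test of the difference itself. The CRISPRi minus siRNA difference in log2 fold change was -1.93 for CRMP1, -0.88 for DPYSL2, 1.05 for DPYSL3, -0.92 for DPYSL4 and -2.27 for DPYSL5. Each also responded differently to CRISPRi in the 2 lines by the same kind of test. The SK-N-AS minus SK-N-SH difference was 1.38 for CRMP1, 0.83 for DPYSL2, -1.75 for DPYSL3, 0.84 for DPYSL4 and 0.42 for DPYSL5. All 10 differences passed an adjusted p under 0.05. Of all genes tested, 31.4% passed between CRISPRi and siRNA and 30.7% between the lines. The CRMP1 difference between lines rests on 0.723 ± 0.0532 CPM in SK-N-AS controls (SD, n = 4). Among groups of 4 or 5 libraries, none of the 24 gene and group combinations tested for an outlying library (the members and FAM167A) had one.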

How the results depend on the processing

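Of 669 alternative values for 35 member results, 652 kept their direction and their side of the threshold and 17 changed sign, all among siRNA changes that did not pass. The cause was not tested. The CRMP1 siRNA change (main value -0.01) was 0.0184 with upper quartile scaling, 0.0381 with total counts, 0.0108 without knockdown libraries 3 and 4 (which stood apart from the other knockdown libraries), and 0.0210 without knockdown library 4 and control library 5, both pairs chosen after seeing the data. DPYSL4 was 0.0143 with upper quartile scaling, 0.0348 with total counts and 0.00838 without knockdown library 4 and control library 5, where DPYSL2 was 0.0297 and DPYSL5 0.0480. DPYSL3 was 0.0108 with total counts. Leaving out 1 library at a time gave -0.0234 to 0.0128 for CRMP1, -0.0390 to 4.62e-05 for DPYSL4, -0.00089 to 0.0280 for DPYSL2 and -0.0280 to 0.0283 for DPYSL5. The member counts of 0, 5 and 2 did not move in any alternative run. Total counts moved the median of all genes in SK-N-SH CRISPRi from -0.0068 to -0.136 and split the calls 2791 up and 6397 down, against 4269 and 4313. In the siRNA experiment the split was 536 up and 1468 down, but 933 and 1220 with upper quartile scaling and 1315 and 1068 with total counts. Among siRNA lists, called binding partners went from 2 to 1 with DESeq2 size factors and with upper quartile scaling, kinases and phosphatases from 2 to 1 with total counts, and neurite genes from 1 to 2 with upper quartile scaling and with total counts. With a replicate block, 1532 genes were called with siRNA against 2004, 8460 against 8582 in SK-N-SH CRISPRi and 5894 against 5904 in SK-N-AS, and no member's call changed. The block was not run for control levels, since a number lies within 1 experiment. A filter at 1 CPM left CRMP1 untested in SK-N-AS, where 22 to 60 reads per library limit it.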

Other observations

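SK-N-AS libraries held PTPRC, the leukocyte phosphatase CD45, at 542 ± 19.1 CPM in controls and 451 ± 14.1 CPM after knockdown (SD, n = 4 each), while CD3E, TYROBP and HBB were at 0. EVC, which overlaps CRMP1 on the opposite strand, rose by 0.16 ± 0.04 on the log2 scale in SK-N-AS (SE, edgeR adjusted p = 0.00118), where CRMP1 was nearly absent.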
